A study of Aconitum carmichaelii with 4 samples.

Results

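Mevalonate kinase (MVK) and phosphomevalonate kinase (PMK) were described here across 4 tissues of Aconitum carmichaelii, an aconite used medicinally for its diterpene alkaloids. The members are the unigenes that the study annotated as MVK1 (TR45020|c0_g1_i1) and PMK1 (TR45726|c0_g1_i3), together with every other assembled transcript of the same Trinity genes, a Trinity gene being a group of transcripts that the assembler derived from 1 set of overlapping reads. They come to 2 Trinity genes of 97828, and to 10 transcripts of 128183. The MVK gene has 1 transcript. The PMK gene has 9, of which PMK1, PMK2 (TR45726|c0_g1_i1) and PMK3 (TR45726|c0_g1_i12) carry names. Those names rest on protein similarity to other species and on a length above 500 bases in the study, and the rule for members uses no expression values.

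The study sequenced root, bud, flower and leaf of untreated 3-year-old plants of 1 plant material number, grown outdoors under natural conditions, to compare the expression of alkaloid pathway genes between tissues. Each tissue gave 1 strand-specific, paired-end library, and how many plants went into a library is not stated in the methods or labels. Library totals were 4811266 fragments in root, 6614173 fragments in bud, 7057551 fragments in flower and 5400853 fragments in leaf. With 1 library per tissue there was no test between tissues, and every 95% interval below covers counting error only, not the spread between plants. In bulk tissue, fewer cells of a type and less RNA per cell cannot be told apart.

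Isoprenoids in plants are built from isopentenyl diphosphate, which is made by the mevalonate (MVA) pathway in the cytosol and by the methylerythritol phosphate (MEP) pathway in plastids. In the MVA pathway, acetyl-CoA is condensed by acetoacetyl-CoA thiolase (AACT) and HMG-CoA synthase (HMGS), and HMG-CoA reductase (HMGR) then makes mevalonate, the step best known for setting the flux of the pathway. MVK adds a phosphate to mevalonate, PMK adds another to the product of MVK, and mevalonate diphosphate decarboxylase (MVDD) turns the resulting diphosphate into isopentenyl diphosphate. MVK, PMK, MVDD and the MEP pathway kinase ISPE belong to the same structural family, the GHMP kinases, and MVK of animals is inhibited by prenyl diphosphates further down the pathway.

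Levels are given as TPM, the deposited unit of relative transcript abundance that corrects for the effective length of a transcript and gives every library the same sum. The level of a gene is the sum over its transcripts. A tissue pair was counted as past 2-fold where the TPM ratio was at least 2 or at most 0.5, and the same was counted over all Trinity genes with at least 20 fragments in the 2 libraries together. The labelled tissues were set against a few markers. The alpha subunit of photosystem II cytochrome b559, a part of the photosynthetic apparatus, had 0, 2, 6 and 26 fragments in root, bud, flower and leaf. The photosystem II K transcript had only 8, 2, 3 and 12 fragments in the same order. It stood at 3.81 TPM in root, 0.62 TPM in bud, 0.86 TPM in flower and 5.92 TPM in leaf. It thus did not separate leaf from root as clearly, and it was higher in root than in bud and flower. The 2 transcripts annotated as FUL 2, a MADS-box family known from inflorescences and fruit, were highest in leaf (47.6 and 57.0 TPM), and a FRUITFULL-like MADS-box transcript was highest in root (15.6 TPM), so these markers did not single out bud and flower.

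In TPM, MVK was highest in bud and flower and lowest in root, although other scalings of the libraries put root level with leaf. MVK1 is 1335 bases long and was the whole of its gene in every library, with an isoform percent (IsoPct, the share of a gene's TPM held by 1 transcript) of 100. It was counted with 51 fragments in root, 207 fragments in bud, 192 fragments in flower and 65 fragments in leaf. These gave 6.997 TPM in root (5.21 to 9.20), 18.6 TPM in bud (16.2 to 21.3), 15.9 TPM in flower (13.7 to 18.3) and 9.32 TPM in leaf (7.20 to 11.9). The order was therefore bud, flower, leaf and root, and of the neighbours in that order only flower and leaf had a ratio whose interval excluded 1.

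The MVK level in root was 0.376 of that in bud (0.271 to 0.513), and MVK was thus past 2-fold lower in root, as were 47.0% of all genes counted in that pair, while 12.3% were past 2-fold higher. The MVK level in root was 0.441 of that in flower (0.317 to 0.603), where 41.5% of genes were past 2-fold lower in root and 14.0% higher. Low root values were thus common to the table as a whole. The median gene had a root over bud ratio of 0.543 and a root over flower ratio of 0.638, and MVK lay at 0.692 of each of these medians, with 37.8% and 37.1% of genes lower still. The MVK ratio of root over leaf was 0.751 (0.510 to 1.10), which is not past 2-fold, and 37.2% of genes were past 2-fold lower and 17.6% higher in root than in leaf.

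Among the aerial tissues, no pair put MVK past 2-fold. The bud over flower ratio was 1.17 (0.959 to 1.43), in a pair where 18.5% of genes were past 2-fold higher in bud and 11.6% lower. The bud over leaf ratio of 1.996 (1.504 to 2.68) fell just short of 2-fold, and 29.5% of genes were past it in that direction against 18.2% in the other. The flower over leaf ratio was 1.70 (1.28 to 2.29), with 23.4% of genes past 2-fold higher in flower and 19.2% lower. Set against the median gene, MVK was 1.66 times as high in bud over leaf and 1.62 times as high in flower over leaf, above 70.4% and 71.7% of genes.

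**Figure D1:**
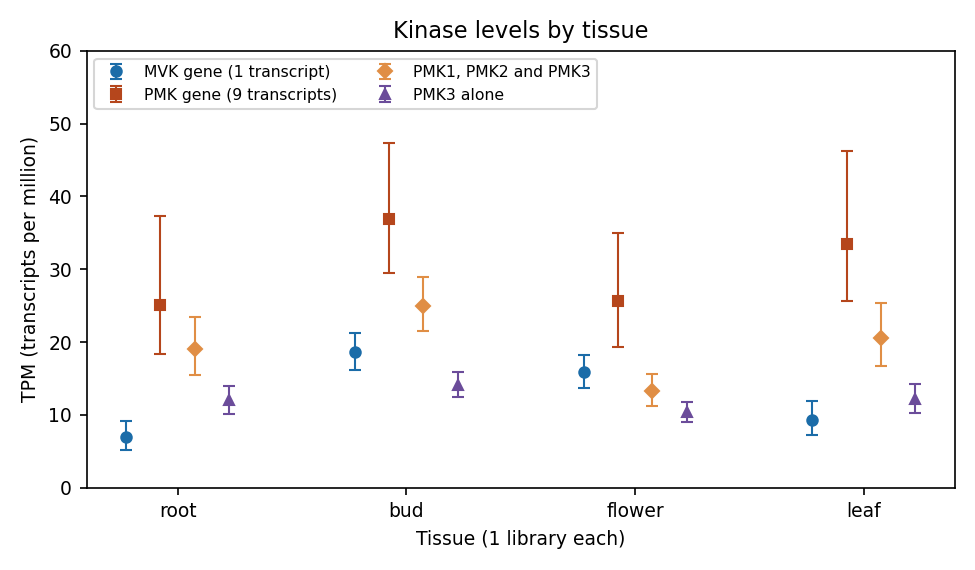
TPM of MVK and of PMK in root, bud, flower and leaf, 1 library each. Points are summed TPM of the MVK gene, of all 9 PMK transcripts, of PMK1, PMK2 and PMK3, and of PMK3 alone, and bars are 95% counting intervals. MVK ran between 6.997 TPM in root and 18.6 TPM in bud, while the PMK gene stayed between 25.2 and 36.9 TPM with bars that overlap across all 4 tissues.

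PMK had a flatter profile than MVK in summed TPM, and its exact level depends on how the short assembled transcripts of the gene are treated. The whole gene was counted with 178 fragments in root, 337 fragments in bud, 252 fragments in flower and 186 fragments in leaf. Its level was 25.2 TPM in root (18.3 to 37.3), 36.9 TPM in bud (29.5 to 47.4), 25.7 TPM in flower (19.4 to 35.0) and 33.5 TPM in leaf (25.6 to 46.3). All 4 intervals overlap, and no neighbours in the order bud, leaf, flower and root differed beyond them. No tissue pair was past 2-fold.

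The PMK ratios of root were 0.683 over bud (0.448 to 1.09), 0.981 over flower (0.618 to 1.63) and 0.752 over leaf (0.467 to 1.23). The remaining PMK ratios were 1.44 for bud over flower (0.969 to 2.13), 1.10 for bud over leaf (0.732 to 1.61) and 0.767 for flower over leaf (0.489 to 1.17). In 4 of the 6 pairs the interval also holds a 2-fold difference, so equal levels were not shown. PMK was also counted as fragments per library total without length, where the short transcripts weigh little. This count also scales the libraries differently from TPM. PMK was then lower in root than in bud at 0.726 (0.602 to 0.873). It was higher in bud than in flower at 1.43 (1.21 to 1.69) and than in leaf at 1.48 (1.23 to 1.78). These ratios were still short of 2-fold. The bud over leaf ratio moved with the scaling. Over all transcripts it was 1.44 (0.956 to 2.11) in FPKM, the length-corrected unit without a fixed sum. With TMM factors (edgeR) it was 0.970 and with size factors (DESeq2) 0.941. PMK1, PMK2 and PMK3 alone gave 1.21 (0.935 to 1.57) in TPM. Since the median gene was lower in root, PMK stood above it in 2 root pairs. It was at 1.26 times the median root over bud ratio and 1.54 times the median root over flower ratio, with 58.4% and 66.3% of genes below PMK. In root over leaf PMK was near the median gene, at 1.05 times its ratio, and so was MVK at 1.05.

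Most PMK fragments came from 1 transcript. PMK3, at 2237 bases the longest of the gene, held 155 of the 178 PMK fragments in root, 278 of 337 in bud, 222 of 252 in flower and 150 of 186 in leaf. That is 87.1% (81.2 to 91.6, exact Clopper-Pearson), 82.5% (78.0 to 86.4), 88.1% (83.4 to 91.8) and 80.6% (74.2 to 86.1). PMK3 also had the highest IsoPct in each library, at 47.6 for root, 38.2 for bud, 40.4 for flower and 36.3 for leaf. The main transcript was thus the same in all 6 tissue pairs. Over genes with 2 or more transcripts, the main transcript differed between libraries for 29.9% of genes in root and bud, 28.9% in root and flower, 30.2% in root and leaf, 27.7% in bud and flower, 29.5% in bud and leaf, and 28.4% in flower and leaf, so that keeping the main transcript was what most genes did.

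PMK3 alone had 11.99 TPM in root (10.2 to 14.0), 14.1 TPM in bud (12.5 to 15.8), 10.4 TPM in flower (9.03 to 11.8) and 12.1 TPM in leaf (10.3 to 14.3). Of the 6 PMK3 ratios, that of bud over flower was the one whose interval excluded 1, at 1.36 (1.14 to 1.63), but with DESeq2 size factors it was 1.17 (0.979 to 1.41). The root over bud ratio of PMK3 was 0.851 (0.694 to 1.04) and its root over flower ratio was 1.16 (0.937 to 1.43). Single-transcript levels of PMK are less certain than the fragments of the gene, because how fragments that match several transcripts were shared among them is not stated in the methods or labels.

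PMK1 and PMK2 were counted with few fragments. PMK1, of 575 bases, had 11 fragments and 4.34 TPM in root, 17 and 4.39 TPM in bud, 7 and 1.66 TPM in flower, and 12 and 4.92 TPM in leaf. PMK2, of 641 bases, had 8 fragments and 2.72 TPM in root, 29 and 6.44 TPM in bud, 6 and 1.22 TPM in flower, and 10 and 3.53 TPM in leaf. Both were lowest in flower. PMK1 was past 2-fold in bud over flower at 2.64 (1.04 to 7.54), in flower over leaf at 0.337 (0.113 to 0.9296) and in root over flower at 2.62 (0.926 to 7.96), the last with an interval that includes 1. PMK2 was past 2-fold in bud over flower at 5.26 (2.15 to 15.5) and in root over bud at 0.422 (0.167 to 0.946). It was also past 2-fold in root over flower at 2.22 (0.675 to 7.76) and in flower over leaf at 0.347 (0.104 to 1.05), with intervals that include 1. These calls rest on 6 to 29 fragments per library. The shares past 2-fold given with MVK are for whole genes with at least 20 fragments in a pair. PMK1 and PMK2 fell short of that minimum in root over flower and in flower over leaf, so those shares do not apply there. Over all pairs the share of genes past 2-fold was 47.7% with that minimum and 66.0% with none. PMK2 took 8.61% of the PMK fragments in bud and 2.38% in flower, an odds ratio of 3.85 (1.54 to 11.5, exact conditional). Of the 18 such odds ratios over the 3 named transcripts and 6 tissue pairs, 1 other had an interval that excluded 1, that of PMK3 in flower over leaf at 1.77 (1.01 to 3.12), and the intervals were not widened for their number.

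The remaining 6 PMK transcripts are between 227 and 472 bases long and carry no name. Together they were counted with 4 fragments in root, 13 fragments in bud, 17 fragments in flower and 14 fragments in leaf, which is 2.25%, 3.86%, 6.75% and 7.53% of the PMK fragments. In TPM the same transcripts made up 24.3%, 32.4%, 48.4% and 38.5% of the gene in root, bud, flower and leaf. The share is so much larger in TPM because their effective length is short: in root, 1 fragment of the 227-base transcript was worth 2.52 TPM, against 0.0773 TPM for 1 fragment of PMK3. In root 3 of the 6 were at a count of 0, in bud 1, in flower none and in leaf 1, and a count of 0 for the 227-base transcript in leaf allowed up to 7.55 TPM (3 fragments).

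**Figure D2:**
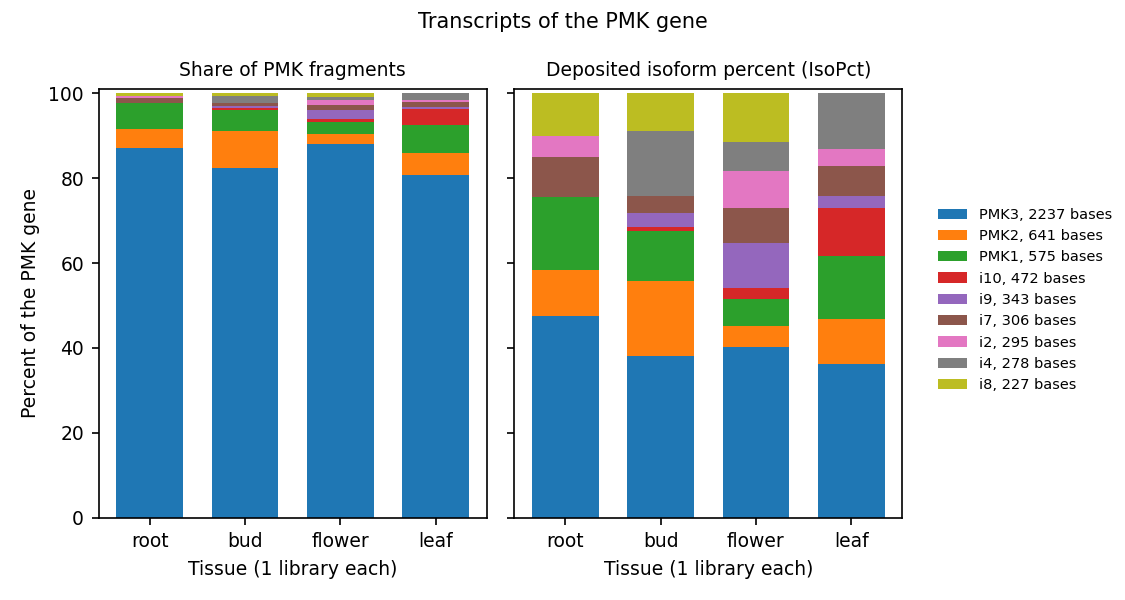
Share of each of the 9 PMK transcripts in the fragments of the PMK gene (left) and the deposited isoform percent (right), in percent, for root, bud, flower and leaf. PMK3 held 80.6% to 88.1% of the fragments but 36.3 to 47.6 in isoform percent, and the 6 shortest transcripts, 2.25% to 7.53% of the fragments, filled 24.3% to 48.4% of the bar at the right.

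Without the 6 short transcripts the tissues separated somewhat more. The sum of PMK1, PMK2 and PMK3 was 19.0 TPM in root (15.5 to 23.4), 24.9 TPM in bud (21.5 to 28.9), 13.2 TPM in flower (11.2 to 15.7) and 20.6 TPM in leaf (16.8 to 25.3). Flower was then the lowest tissue. The root over flower ratio of this sum was 1.44 (1.10 to 1.88), against 0.981 with all 9 transcripts, which turns the direction. The bud over flower ratio was 1.88 (1.496 to 2.36), the flower over leaf ratio 0.643 (0.492 to 0.845) and the root over bud ratio 0.764 (0.592 to 0.989), and none of these was past 2-fold.

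Shares of the gene moved between libraries within the range of many other genes. The largest difference in IsoPct of any PMK transcript was 15.3 points between root and bud, 10.8 between root and flower, 13.2 between root and leaf, 12.7 between bud and flower, 10.5 between bud and leaf and 11.6 between flower and leaf. A difference at least as large was seen in 31.5%, 46.1%, 39.2%, 31.0%, 45.3% and 39.6% of genes with 2 or more transcripts, in the same order of pairs. In every pair PMK thus lay above the median of these genes. They were not matched to PMK for the number of transcripts, and the PMK transcripts with the largest differences had few fragments. Only 0.296% of all Trinity genes have 9 or more transcripts, and 84.4% have 1, as the MVK gene does.

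The ratios of root to the aerial tissues moved with the scaling of the libraries. Scaled with TMM factors (edgeR) or size factors (DESeq2) in place of a fixed TPM sum, root moved upward against the other libraries. On a log2 scale the shift was 0.59 and 0.67 against bud, 0.44 and 0.46 against flower, and 0.41 and 0.44 against leaf. MVK was then at 0.567 and 0.599 in root over bud and at 0.598 and 0.604 in root over flower, so that neither pair was past 2-fold any longer, though the intervals still excluded 1 (0.409 to 0.774 and 0.432 to 0.817 in root over bud). In root over leaf MVK came to 0.997 and 1.02 under these scalings. For the PMK gene root over bud turned to 1.03 and 1.09 and root over flower to 1.33 and 1.34, with intervals that include 1. PMK3 was then highest in root, at 1.28 (1.05 to 1.57) and 1.35 (1.11 to 1.65) over bud, 1.57 (1.27 to 1.94) and 1.59 (1.28 to 1.96) over flower, and 1.31 (1.04 to 1.65) and 1.34 (1.06 to 1.69) over leaf. The sum of PMK1, PMK2 and PMK3 turned in root over bud to 1.15 (0.893 to 1.49) and 1.22 (0.942 to 1.57), and its root over flower ratio came to 1.95 and 1.97. PMK1 in root over flower came to 3.55 (1.26 to 10.8) and 3.59 (1.27 to 10.9), its bud over flower interval then included 1, and PMK2 in root over bud was no longer past 2-fold at 0.636 (0.251 to 1.43) and 0.671 (0.265 to 1.505). The direction of PMK between root and bud was thus not settled by these libraries. With deposited FPKM, the length-corrected unit without a fixed sum, MVK was past 2-fold also in bud over leaf (2.61) and flower over leaf (2.26). Positions relative to the median gene do not depend on the scaling.

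**Figure D3:**
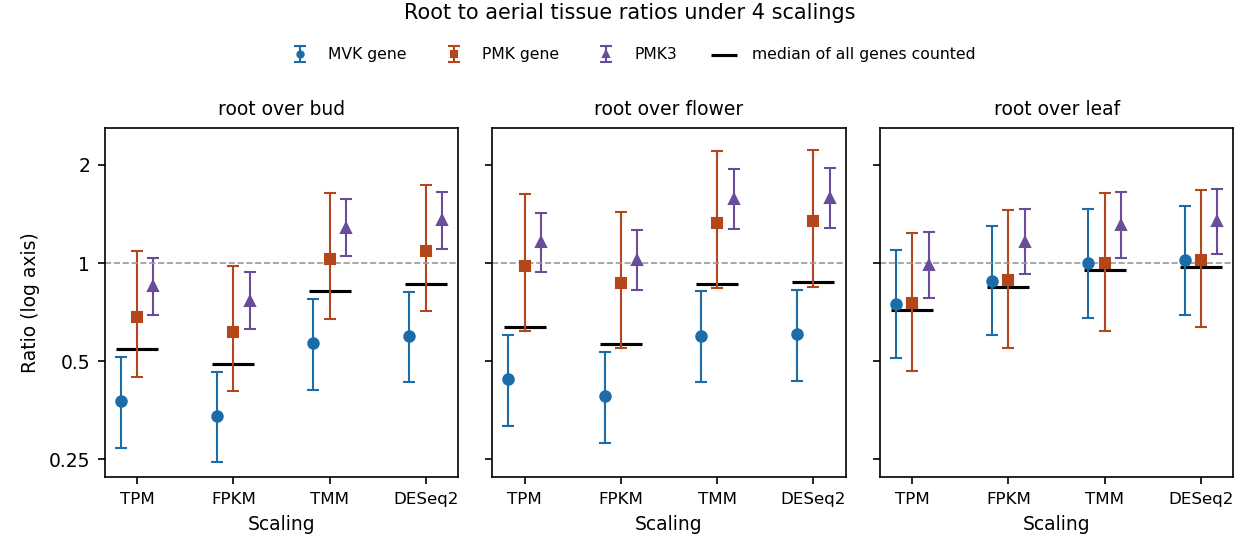
Ratios of root over bud, root over flower and root over leaf (log axis) for the MVK gene, the PMK gene and PMK3 under TPM, FPKM, TMM factors and DESeq2 size factors, with 95% counting intervals. The black line is the median of all genes counted, for example 0.543 for root over bud in TPM. MVK lies below that line in root over bud and root over flower under each scaling, the PMK gene and PMK3 above it.

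Within a library the comparison of PMK with MVK needs no scaling between libraries. The PMK to MVK ratio of summed TPM was 3.60 in root (2.35 to 6.01), 1.98 in bud (1.52 to 2.66), 1.62 in flower (1.18 to 2.29) and 3.59 in leaf (2.49 to 5.54). PMK thus exceeded MVK in summed TPM in every library, by more in root and leaf than in bud and flower. The size of the excess, and its direction in bud and flower, depended on the transcripts counted. With PMK1, PMK2 and PMK3 the ratio was 2.72 in root, 1.34 in bud, 0.834 in flower (0.671 to 1.05) and 2.21 in leaf. With PMK3 alone it was 1.71 in root (1.24 to 2.40), 0.757 in bud (0.630 to 0.911), 0.652 in flower (0.535 to 0.795) and 1.30 in leaf (0.968 to 1.77), so that PMK3 was above MVK in root and below it in bud and flower.

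The contrast between the root and leaf libraries and the bud and flower libraries did not depend on that choice. In fragments, the PMK to MVK ratio was 3.49 for root, 1.63 for bud, 1.31 for flower and 2.86 for leaf. This PMK to MVK ratio of fragments was 2.14 times as high in root as in bud (1.48 to 3.13, exact conditional) and 2.66 times as high in root as in flower (1.83 to 3.91). It was 0.569 in bud over leaf (0.402 to 0.801) and 0.459 in flower over leaf (0.321 to 0.652). Root and leaf were not told apart, at 1.22 (0.785 to 1.90), nor were bud and flower, at 1.24 (0.953 to 1.61). With PMK3 alone the same 4 pairs had intervals that excluded 1, at 2.26, 2.62, 0.582 and 0.502. That recount is not separate support, since PMK3 holds 80.6% to 88.1% of the PMK fragments and the MVK fragments are the same.

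**Figure D4:**
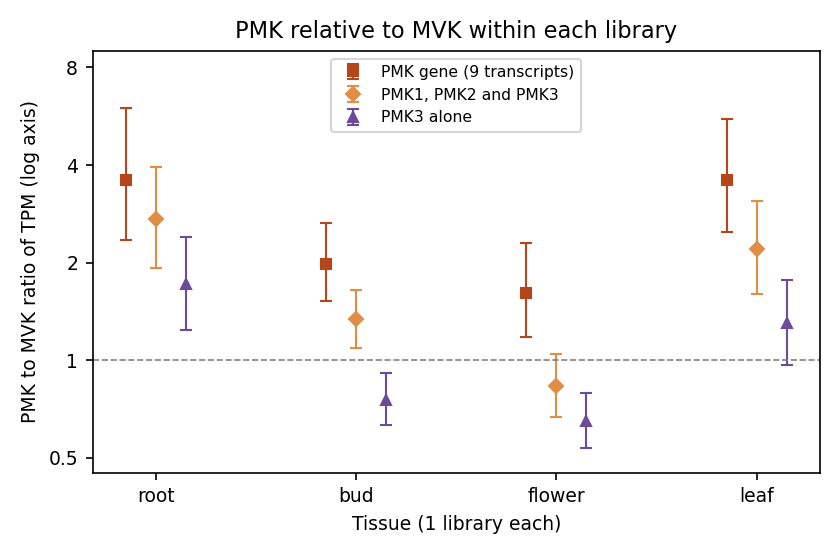
PMK to MVK ratio of TPM within each library (log axis) for all 9 PMK transcripts, for PMK1, PMK2 and PMK3, and for PMK3 alone, with 95% counting intervals. The dashed line marks equal TPM. For each choice of transcripts root and leaf lie above bud and flower, as in 3.60 and 3.59 against 1.98 and 1.62 for the whole gene.

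Summed over the genes of each enzyme, both kinases had a smaller fold between their highest and lowest TPM than the other 4 MVA enzymes in these libraries. This difference was not tested. By single genes it did not hold for MVK, since AACT3/AACT4 ran from 62.8 TPM in root to 25.6 TPM in leaf, a smaller fold than that of MVK. AACT had 64.5 TPM in root, 87.1 TPM in bud, 49.8 TPM in flower and 29.4 TPM in leaf, summed over 2 genes. HMGS had 6.90 TPM in root, 95.7 TPM in bud, 33.5 TPM in flower and 22.8 TPM in leaf over 3 genes. HMGR, 1 gene, had 158.6 TPM in root, 112.8 TPM in bud, 77.6 TPM in flower and 10.7 TPM in leaf. The enzymes that feed the kinases were thus at their lowest in different tissues, HMGS in root and summed AACT and HMGR in leaf. Of the 2 AACT genes, AACT1/AACT2 was itself lowest in root, at 1.69 TPM against 3.86 TPM in leaf. MVDD, which takes over from PMK, had 3.46 TPM in root, 12.4 TPM in bud, 6.43 TPM in flower and 4.85 TPM in leaf, the lowest level of the 6 enzymes in every library.

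MVK made up 2.63% of the summed TPM of the 6 enzymes for root, 5.12% for bud, 7.6% for flower and 8.43% for leaf, and PMK 9.47%, 10.2%, 12.3% and 30.3%. PMK ranked 3 of the 6 enzymes in root, 4 in bud and flower and 1 in leaf, but in leaf its 33.5 TPM and the 29.4 TPM of AACT had overlapping intervals, and PMK1, PMK2 and PMK3 alone (20.6 TPM) would come behind AACT and HMGS. MVK ranked 4 in root, level with HMGS at a ratio of 1.01 (0.658 to 1.48), and 5 elsewhere. Among all 97828 genes, taken without a minimum of fragments, MVK was above 87.5% for root, 91.9% for bud, 91.3% for flower and 86.0% for leaf. PMK was above 94.4% to 96.1%. These ranks include many genes with few fragments. The median transcript had 0.49 TPM in root, 1.87 TPM in bud, 1.41 TPM in flower and 1.2 TPM in leaf.

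The widest span against another step of the pathway was that to HMGR. MVK was at 0.0441 of the HMGR level for root (0.0325 to 0.0585), 0.165 for bud, 0.205 for flower and 0.869 for leaf (0.586 to 1.23). PMK was at 0.159 of HMGR for root (0.114 to 0.237), 0.327 for bud, 0.331 for flower and 3.12 for leaf (2.09 to 4.77). Most of this span lay in HMGR itself, whose root over leaf ratio was 14.8 (11.1 to 19.1), beside 0.751 for MVK and 0.752 for PMK. MVK kept closer to MVDD, at 2.02 times its level in root (1.29 to 3.21), 1.505 in bud (1.23 to 1.84), 2.47 in flower (1.94 to 3.16) and 1.92 in leaf (1.30 to 2.86).

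**Figure D5:**
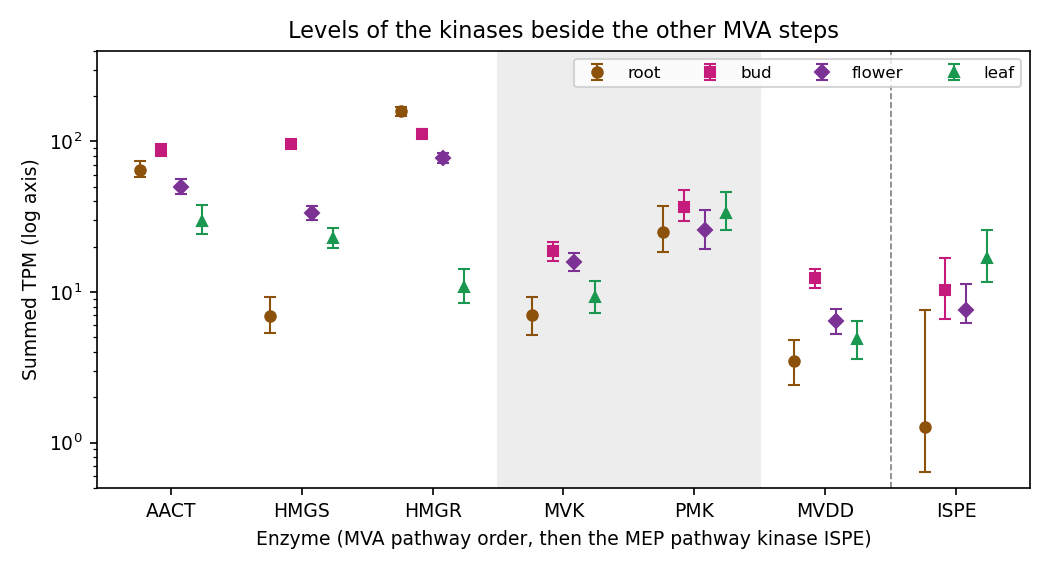
Summed TPM (log axis) of the 6 MVA pathway enzymes in pathway order and of the MEP pathway kinase ISPE, in root, bud, flower and leaf, with 95% counting intervals. The shaded kinases span 6.997 to 18.6 TPM (MVK) and 25.2 to 36.9 TPM (PMK), against 10.7 to 158.6 TPM for HMGR and 6.90 to 95.7 TPM for HMGS.

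The other 7 genes of the MVA pathway were counted in the same way, those with at least 20 fragments in a pair. In root over bud 4 of the 6 so counted were past 2-fold lower (AACT1/AACT2, HMGS2/HMGS3, HMGS4 and MVDD1/MVDD2) and 0 higher, with a median ratio of 0.277 beside 0.543 for all genes, of which 47.0% were lower and 12.3% higher. In root over flower 3 of 6 were lower (AACT1/AACT2, HMGS2/HMGS3 and HMGS4) and 1 higher (HMGR1/HMGR2/HMGR3), with a median of 0.430, against 41.5% and 14.0% of all genes. In root over leaf 2 of 5 were lower (HMGS2/HMGS3 and HMGS4) and 2 higher (AACT3/AACT4 and HMGR1/HMGR2/HMGR3), with a median of 0.712, against 37.2% and 17.6% of all genes. MVK was past 2-fold lower in root over bud and root over flower, and PMK was not past 2-fold in any of the 3.

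The same 7 genes were counted between the aerial tissues. In bud over flower 2 of 7 were past 2-fold higher (AACT1/AACT2 and HMGS2/HMGS3), in bud over leaf 4 of 6 (AACT1/AACT2, HMGS2/HMGS3, HMGR1/HMGR2/HMGR3 and MVDD1/MVDD2) and in flower over leaf 2 of 6 (AACT1/AACT2 and HMGR1/HMGR2/HMGR3), with none lower in these 3 pairs. Over all genes 18.5%, 29.5% and 23.4% were higher in the same pairs and 11.6%, 18.2% and 19.2% lower. The median ratios of the other MVA genes were 1.45, 6.401 and 1.66, against 1.17, 1.20 and 1.05 for all genes. Neither MVK nor PMK was past 2-fold in these pairs.

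ISPE, the kinase of the MEP pathway, had a profile unlike that of MVK. It had 1.28 TPM in root (0.637 to 7.55, 11 fragments), 10.4 TPM in bud, 7.61 TPM in flower and 16.8 TPM in leaf. MVK was at 5.49 times the ISPE level in root (0.882 to 11.7), 1.79 in bud (1.08 to 2.87), 2.09 in flower (1.35 to 2.66) and 0.554 in leaf (0.330 to 0.862). The order of these kinases of the separate pathways thus turned in leaf, where ISPE was above MVK.

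Profiles over the 4 tissues were also compared as shares of a gene's summed TPM. MVK had 13.8% of its summed TPM for root, 36.6% for bud, 31.3% for flower and 18.4% for leaf, and PMK 20.8%, 30.4%, 21.2% and 27.6%. The distance between the profiles, the part of the summed TPM that would have to move to another tissue to make them equal, was 0.163, and 31.6% of 25637 genes lay as near to MVK and 36.4% as near to PMK. The kinases were thus no nearer to each other than many other genes were to either. Of the other 36 listed genes of alkaloid precursor synthesis, those nearest to MVK were DXS3/DXS6/DXS8 of the MEP pathway (0.0402, with only 71 fragments), HMGS4 (0.0791) and MVDD1/MVDD2 (0.0899). Those nearest to PMK were DXS11 of the MEP pathway (0.0606), the isopentenyl diphosphate isomerase IPPI2 (0.0667) and HMGS4 (0.126). Of the 25637 genes, 8.38% lay as near to MVK as MVDD1/MVDD2 did, and 23.3% lay as near to PMK as HMGS4 did. Such nearness was thus not particular to the listed genes. These distances describe 4 libraries, and a profile of 4 values is shared by many genes.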

How the data were processed

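Total RNA of each tissue was made into a strand-specific cDNA library and sequenced in pairs on an Illumina HiSeq. The authors trimmed reads with Trimmomatic, assembled them with Trinity, reduced redundancy with CD-HIT-EST and aligned reads to the assembly with Bowtie 2, without a genome. They deposited 1 RSEM table per library with the estimated count of fragments (expected count), TPM, FPKM and the isoform percent of each transcript, and a joint table of FPKM. Versions of the other tools named are not given in the sources used here. Expected counts of the members are whole numbers, and the treatment of fragments matching several transcripts is not given. Very short transcripts have a small effective length, so that 1 fragment weighs heavily in their TPM.

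Deposited TPM was used for single transcripts. For genes, expected counts divided by effective length were scaled to TPM and summed, which differed from deposited TPM of a member by at most 0.005. Intervals (95%) were exact Poisson for a transcript, gamma for sums, conditional binomial or F for ratios between libraries, and Clopper-Pearson for shares. They cover counting error only, and for a count of 0 the limit was set at 3 fragments. All Trinity genes with at least 20 summed fragments served as background (40 for profiles). TMM factors (edgeR 4.0.16) came from transcripts with at least 20 summed counts. Size factors (DESeq2 1.42.0) were computed without that minimum. Both were used for scaling only. Procedures were tested on simulated data. Scripts ran in R 4.3.3 and Python 3.11.15 (pandas 2.3.3, scipy 1.17.1, matplotlib 3.10.9, numpy 2.4.6).

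The members and lists were chosen with earlier results of these data known. The text names all transcripts of both kinase genes, the other MVA genes and ISPE, and the 3 listed genes nearest to each kinase in profile. The list holds the 52 unigenes (38 Trinity genes) that the study assigned to the pathways. Alternatives were FPKM, TMM and DESeq2 scaling, counts without length, named PMK transcripts only, PMK3 only (added after the data were seen), and other fold and count minimums. Protein, promoter and transcript sequences were not analysed here.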

Additional observations from a re-analysis of the deposited data

How the results depend on the processing

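Of 87 alternative values of 22 results, 69 moved by less than the counting error or, for shares of all genes, by less than 1.5 times, 15 moved by more and 3 reversed. The MVK root over bud ratio moved to 0.567 with TMM factors and 0.599 with DESeq2 size factors. Its root over flower ratio moved to 0.604 with DESeq2 size factors. In these libraries both kinds of factor raised root relative to the TPM sum. The PMK gene ratios crossed 1 under some scalings, transcript choices or counts without length in every pair but bud over flower, with values inside the intervals of the TPM ratios. Their intervals excluded 1 in root over bud (0.726), bud over flower (1.43) and bud over leaf (1.48) with counts without length, and in root over bud with FPKM (0.615, 0.404 to 0.982). With PMK1, PMK2 and PMK3 only, in TPM, they excluded 1 in root over flower (1.44), bud over flower (1.88), flower over leaf (0.643) and root over bud (0.764). With PMK3 only, in TPM, the interval of bud over flower (1.36) excluded 1. The PMK to MVK ratio of TPM moved with the transcripts summed. It was 1.71 in root with PMK3 only, 1.34 in bud with PMK1, PMK2 and PMK3, and 2.21 and 1.30 in leaf with PMK1, PMK2 and PMK3 and with PMK3 only. It reversed to 0.757 in bud with PMK3 only, and in flower to 0.834 with PMK1, PMK2 and PMK3 and 0.652 with PMK3 only. The share of PMK3 in its gene, an isoform percent of 47.6, 38.2, 40.4 and 36.3 in root, bud, flower and leaf, was 87.1%, 82.5%, 88.1% and 80.6% of fragments and 62.9%, 56.6%, 78.2% and 59.0% of the TPM of transcripts over 500 bases, since these leave out or down-weight the short transcripts. The share of genes past 2-fold in a pair was 47.7% over all pairs, and 66.0% with no minimum, 65.4% past 1.5-fold and 31.8% past 3-fold. Of the 6 nearest places in profile, 3 for each kinase and held by 5 genes, 6 kept their gene among the nearest with TMM factors and 5 with FPKM.

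No paired analysis was possible because each tissue has 1 library, and for the same reason no replicate could be left out. Variation between plants is thus not measured. MVK rests on 51 fragments in root and 65 in leaf, PMK1 on 7 to 17 and PMK2 on 6 to 29 per library, so that small differences in these were not detectable, and the 6 short PMK transcripts, with 48 fragments in all, set much of the width of the PMK gene intervals.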
